A study of Rattus norvegicus with 10 samples.

Results

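The circadian clock is a transcriptional loop that runs in most cells, neurons and glia included. The activators BMAL1 (encoded by Arntl) and CLOCK pair up and bind E-box elements in DNA, the PER and CRY proteins they induce return to the nucleus and repress them, and side loops of nuclear receptors, bHLH repressors and PAR bZIP factors shape the rhythm. Per1 is also known as an immediate-early gene, switched on through CREB by light in the suprachiasmatic nucleus and by synaptic activity elsewhere in the brain. The 10 clock genes described here were chosen by symbol (Per1, Per2, Per3, Cry1, Cry2, Bhlhe40, Nr1d1, Dbp, Arntl and Clock), and all 10 were found among the 11615 genes of the deposited table. The choice was made with earlier results of these data known.

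Poly(A) RNA had been sequenced from Wistar rat hippocampal neurons kept in culture until day 15, as 2 biological repeats in each of 5 groups. The protocol, chemical long-term potentiation (cLTP), strengthens synapses across a whole dish. Its mock solution was given to 1 group, and its active solution to the other 4, which were collected 5, 10, 60 or 120 min afterwards. Every culture, mock included, had been given fluorodeoxyuridine and uridine on day 4 to hold back glial growth. What the cLTP solution contained, the time of day and when mock cultures were harvested are not stated, so drift of the clock during the experiment and an effect of the stimulus cannot be told apart.

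Library totals ran from 32961534 to 54040657 reads. Neuronal markers were listed in full (Map2 at 880 CPM, the table's unit of reads scaled to a common library total, in mock), but the cultures were mixed: the astrocyte filament gene Gfap stood at 10500 CPM, the microglial gene C1qa at 58.2 CPM and the fibroblast gene Col1a1 at 1110 CPM. The fibroblast gene Col1a2 and the endothelial genes Pecam1 and Cldn5 were not analysed here. The summed level of 5 neuronal markers was 2110 to 2210 CPM in mock, 2140 to 2200 CPM at 60 min and 1810 to 1890 CPM at 120 min. In the same order, 5 astrocyte markers summed to 18500 to 18600, 19200 to 19700 and 19900 to 20800 CPM, and 5 microglial markers to 171 to 174, 144 to 153 and 121 to 128 CPM. The 2 listed of 5 fibroblast or vascular markers summed to 1120 to 1210, 877 to 911 and 893 to 939 CPM, and 5 oligodendrocyte markers to 1240 to 1300, 1270 to 1310 and 1130 to 1180 CPM. The part of these shifts in the clock genes' levels was not tested, and in such bulk RNA fewer cells of a type and less RNA per cell cannot be told apart. The 5 min pair was the least alike, with an SD of the log2 difference between replicates of 0.164 against 0.113 to 0.125 in the other pairs.

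Over the whole course all 10 clock genes differed from mock at one time or another in limma's moderated F test (adjusted p from 7.2e-11 for Bhlhe40 to 0.022 for Nr1d1), beside 41.4% of all genes, and 8 to 10 of them did with 1 library left out. They did so in separate waves. Bhlhe40, Per1 and Cry2 were higher at 60 min. Arntl, Cry1 and Per2 were higher only from 120 min in the comparisons with mock, and Dbp was lower at 120 min. Per3 was also called lower at 120 min, but close to the threshold (limma, adjusted p = 0.044). It lay farther below mock at 5 min (0.658 of mock), without a call. Clock and Nr1d1 stayed within 1.18-fold of mock at all 4 times.

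**Figure D1:**
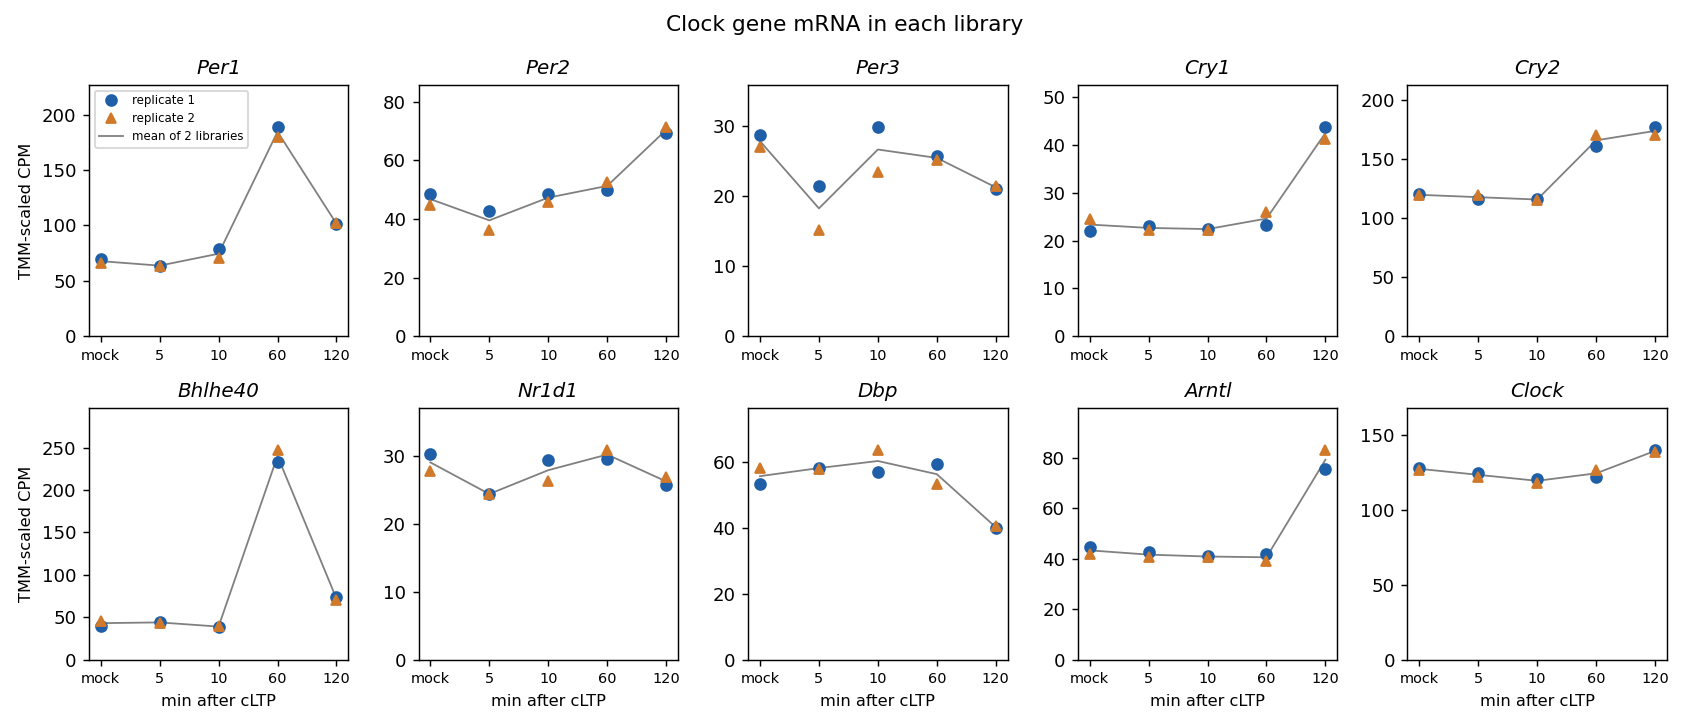
TMM-scaled CPM (y axis, starting at 0, with a scale of its own in each panel) of the 10 clock genes in each library, by group (x axis, mock and min after cLTP, evenly spaced and not to scale in time). Circles are replicate 1, triangles replicate 2 and the line joins the means of 2 libraries; Bhlhe40 and Per1 peak at 60 min, while Arntl, Cry1 and Per2 are highest at 120 min.

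Scaled to the gene length that the table lists, Cry2 was the most abundant in mock at 30.1 ± 0.16 CPM per kb (SD, n = 2, as for all values that follow). Bhlhe40 (18.1 ± 1.7 CPM per kb) and Per1 (16.9 ± 0.61 CPM per kb) came next and overlapped, followed by Arntl (14.5 ± 0.68 CPM per kb) and Dbp (13 ± 0.79 CPM per kb). Per2, Cry1 and Per3 lay between 7.95 and 8.13 CPM per kb and could not be ordered, and Clock (6.88 ± 0.049 CPM per kb) and Nr1d1 (6.24 ± 0.36 CPM per kb) were the lowest. The table gives Clock a length of 18498 bases, against 2376 to 5760 bases for the other 9 genes, and its place in this order rests on that length. At 60 min Bhlhe40 was the highest, at 101 ± 4.1 CPM per kb. At 120 min Cry2 led again at 43.7 ± 1.1 CPM per kb, ahead of Bhlhe40 at 30.2 ± 0.9 CPM per kb, and Arntl (26.6 ± 1.8 CPM per kb) overlapped Per1 (25.4 ± 0.033 CPM per kb).

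Bhlhe40 encodes DEC1, a bHLH repressor that competes with CLOCK and BMAL1 for E-boxes (chromosome 4, 140703619 to 140709319, rn6). Its level was 40.1 and 45.9 CPM in the mock libraries, 44.6 and 43.2 CPM at 5 min, 38.7 and 39.2 CPM at 10 min, 233 and 247 CPM at 60 min, and 73.4 and 70.4 CPM at 120 min. Both 60 min libraries stood far above all others, and both 120 min libraries above mock. The rise at 60 min was 5.48-fold (log2 fold change 2.45, SE 0.06, adjusted p = 6.6e-11), the 40th largest rise of all genes. From 60 to 120 min the level fell by 1.72 on the log2 scale (SE 0.06, adjusted p = 3.3e-09), and at 120 min 14.7% of the 60 min excess over mock was left (71.9 ± 2.1 CPM, 1.66-fold over mock, adjusted p = 2.5e-06).

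Per1, the PERIOD gene known for its fast response to CREB (chromosome 10, 55687124 to 55696020, rn6), followed the same outline with a smaller peak. It was at 69.5 and 66 CPM in mock, 63.8 and 63.6 CPM at 5 min, 78.3 and 70.6 CPM at 10 min, 189 and 180 CPM at 60 min, and 101 and 102 CPM at 120 min. The 10 min libraries already lay above both mock libraries, without passing over all genes (log2 fold change 0.13, SE 0.05, 95% interval 0.02 to 0.25, adjusted p = 0.45). At 60 min Per1 had risen 2.7-fold (log2 fold change 1.43, SE 0.05, adjusted p = 2.1e-09), the 80th largest rise. By 120 min it had fallen back to 1.49-fold over mock (adjusted p = 6.3e-06), keeping 28.9% of its 60 min excess, and the fall from 60 min was itself called (log2 difference -0.86, SE 0.05, adjusted p = 3e-07).

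Cry2 encodes a cryptochrome, the PER partner that blocks CLOCK and BMAL1 directly. It was at 120 and 119 CPM in mock, between 115 and 119 CPM in the 4 libraries of 5 and 10 min, 161 and 170 CPM at 60 min, and 177 and 170 CPM at 120 min. Unlike the transient pair, it rose and then held its level: 1.38-fold at 60 min (log2 fold change 0.47, SE 0.04, adjusted p = 9.7e-06) and 1.45-fold at 120 min (adjusted p = 1.3e-06), with no call between the 2 times (log2 difference 0.07, 95% interval -0.02 to 0.16, adjusted p = 0.23). These 3 genes were all of the 10 that were called at 60 min, each of them higher, beside 6.6% of all genes called (4.64% higher and 1.96% lower, or 539 and 228 genes, against 447 and 333 with library totals). The members' median log2 fold change was 0.06 at 60 min, against -0.0061 for all genes.

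Because Bhlhe40 carries the strongest response and E-boxes are the element its own protein and CLOCK:BMAL1 bind, the bases upstream of its RefSeq start are shown (GRCr8, chr4:143174200-143174449, plus strand), 5′ to 3′, with the E-box CACGTG in capitals.

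Bhlhe40: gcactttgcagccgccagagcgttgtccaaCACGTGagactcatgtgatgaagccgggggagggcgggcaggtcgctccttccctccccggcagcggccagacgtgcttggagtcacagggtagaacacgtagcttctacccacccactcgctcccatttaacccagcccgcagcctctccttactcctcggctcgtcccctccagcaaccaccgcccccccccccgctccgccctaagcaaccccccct

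The E-box starts 220 bases before the annotated start. Exact matches were sought on both strands of the 250 bases before each start, for CACGTG, the cAMP response element TGACGTCA and its short form TGACG (which lies within the full element), the D-box TTATGTAA bound by DBP and its relatives, and AGGTCA, the core bound by REV-ERB and ROR receptors. Of 33469 promoters in the RefSeq table, 5.59% held CACGTG, 1.59% TGACGTCA, 18.2% TGACG, 0.828% TTATGTAA and 14.1% AGGTCA. The table held 11 promoters for 9 of the 10 clock genes, Cry1 being the exception, and 5 of the 11 had a match: those of Bhlhe40, Arntl, Per2 and the second of Nr1d1, all printed here, and that of Per3, with TGACG on the other strand 164 to 160 bases before the start. For Per1 it held only a start inside the gene, where these letters were not found. The share of all promoters that hold at least 1 of these motifs was not computed, so the 5 of 11 cannot be set against it. These matches describe the windows and show nothing about binding.

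Arntl encodes BMAL1, the one activator without which the clock stops in mice (chromosome 1, 178039063 to 178137471, rn6). It was at 44.8 and 41.9 CPM in mock, between 39.3 and 42.5 CPM in the 6 libraries of 5, 10 and 60 min, and 75.5 and 83.1 CPM at 120 min. Only the 120 min libraries stood apart. The level was 1.81-fold over mock (log2 fold change 0.86, SE 0.06, adjusted p = 5.3e-07) and 1.93-fold over 60 min (adjusted p = 3.2e-07). At 60 min the interval of its log2 fold change ran from -0.22 to 0.04 (adjusted p = 0.52).

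Cry1, the second cryptochrome and in mice the stronger repressor, changed at the same time. It was at 22.1 and 24.6 CPM in mock, 22.3 to 23 CPM at 5 and 10 min, 23.3 and 25.9 CPM at 60 min, and 43.8 and 41.2 CPM at 120 min. The 60 min libraries overlapped mock (log2 fold change 0.07, 95% interval -0.08 to 0.23), whereas for Cry2 the 60 min interval was 0.38 to 0.56; the difference between the cryptochromes was not tested. At 120 min Cry1 was 1.79-fold over mock (log2 fold change 0.84, SE 0.07, adjusted p = 2.4e-06) and 1.7-fold over 60 min (adjusted p = 7.4e-06).

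Per2, the PERIOD gene whose loss disrupts rhythms in mice, was at 48.7 and 44.9 CPM in mock, 42.7 and 36.4 CPM at 5 min, 48.7 and 45.9 CPM at 10 min, 49.9 and 52.7 CPM at 60 min, and 69.3 and 71.5 CPM at 120 min. Both 60 min libraries lay above mock, but the difference did not pass (log2 fold change 0.13, 95% interval -0.03 to 0.29, adjusted p = 0.42). It rose 1.49-fold at 120 min (log2 fold change 0.58, SE 0.07, adjusted p = 7.5e-05), to the same fold as Per1 at that time, from the other side: Per2 climbed by 0.45 from 60 to 120 min on the log2 scale (SE 0.07, adjusted p = 6e-04) while Per1 was falling.

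Arntl and Per2 were picked for display as late genes with a side-loop element upstream of the start. Whether these elements play a part in the rise was not tested, and E-boxes other than CACGTG were not sought. In the sequence for Arntl (GRCr8, chr1:176766078-176766327, plus strand) the capitals mark AGGTCA, 15 to 10 bases before the start, and in that for Per2 (GRCr8, chr9:99496994-99497243, minus strand) they mark the D-box, 192 to 185 bases before it.

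Arntl: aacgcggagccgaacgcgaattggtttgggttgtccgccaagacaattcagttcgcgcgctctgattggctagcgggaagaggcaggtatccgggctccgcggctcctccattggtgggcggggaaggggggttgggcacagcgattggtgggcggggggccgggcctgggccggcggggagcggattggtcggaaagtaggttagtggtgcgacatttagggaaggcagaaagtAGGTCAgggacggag

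Per2: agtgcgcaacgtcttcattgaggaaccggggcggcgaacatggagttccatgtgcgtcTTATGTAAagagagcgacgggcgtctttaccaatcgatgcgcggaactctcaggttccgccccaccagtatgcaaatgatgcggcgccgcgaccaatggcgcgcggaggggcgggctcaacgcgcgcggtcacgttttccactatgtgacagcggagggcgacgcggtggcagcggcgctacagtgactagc

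Clock, the histone acetyltransferase partner of BMAL1, barely moved. It was at 127 ± 0.91 CPM in mock, 124 ± 3.7 CPM at 60 min and 139 ± 0.7 CPM at 120 min, which was called higher than mock (log2 fold change 0.13, SE 0.04, adjusted p = 0.027) and than 60 min (0.16, adjusted p = 0.0084). The call against mock was lost with library totals (adjusted p = 0.25), with upper-quartile factors (adjusted p = 0.21), and when a mock or 120 min library was left out (adjusted p between 0.088 and 0.13). That against 60 min was lost without replicate 1 of 60 min (adjusted p = 0.081) or of 120 min (adjusted p = 0.057).

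Dbp, a PAR bZIP activator that is a classic direct target of CLOCK and BMAL1, went down. It was at 53.3 and 58.1 CPM in mock, between 53.2 and 63.6 CPM in the 6 libraries up to 60 min, and 39.9 and 40.5 CPM at 120 min. The 120 min libraries lay below all 8 others. The fall was 0.46 on the log2 scale against mock (0.727 of the mock level, SE 0.07, adjusted p = 0.00027) and of like size against 60 min (log2 difference -0.47, adjusted p = 0.00025).

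Per3, the PERIOD gene that mouse clocks can run without, was at 28.7 and 27 CPM in mock, 21.4 and 15.1 CPM at 5 min, 29.9 and 23.4 CPM at 10 min, 25.7 and 25.2 CPM at 60 min, and 21 and 21.5 CPM at 120 min. On the log2 scale its replicates were the farthest apart of the 10 genes at 5 and 10 min. It was called lower at 120 min (log2 fold change -0.38, SE 0.13, adjusted p = 0.044), a call lost when any mock, 60 min or 120 min library was left out (adjusted p between 0.062 and 0.17).

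Nr1d1 encodes REV-ERB alpha, the nuclear receptor that represses Arntl through AGGTCA elements. It was at 30.2 and 27.8 CPM in mock, 24.4 and 24.3 CPM at 5 min, 29.4 and 26.3 CPM at 10 min, 29.5 and 30.8 CPM at 60 min, and 25.6 and 26.8 CPM at 120 min. At 120 min it was not called against mock (log2 fold change -0.14, 95% interval -0.29 to 0.01, adjusted p = 0.13), while library totals and upper-quartile factors called it lower (adjusted p = 0.036 and 0.029). Against 60 min it was called lower (-0.19, SE 0.07, adjusted p = 0.041), a call lost when any 60 or 120 min library was left out (adjusted p between 0.07 and 0.2). Its 3′ end shares 1061 bases with Thra, the thyroid hormone receptor gene on the opposite strand, which was listed at 423 ± 23 CPM in mock and 373 ± 1.8 CPM at 120 min (log2 fold change -0.18, adjusted p = 0.016, lost without mock replicate 2 or either 120 min library, adjusted p from 0.066 to 0.16). Since no strand setting is stated, reads from the shared stretch cannot be told apart. Other listed genes that overlap clock genes do so only through listed spans of 33878235 bases or more.

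Nr1d1 has a pair of RefSeq starts, and the window before the downstream one held an E-box, 191 to 186 bases before it (GRCr8, chr10:84229455-84229704, minus strand). It is shown because it holds CACGTG, as the window of Bhlhe40 does. At 60 min Nr1d1 was at 1.04-fold of mock (95% interval of the log2 fold change -0.09 to 0.2) and Bhlhe40 at 5.48-fold. The levels are per gene and do not separate the starts of Nr1d1. Whether the E-box bears on either level was not tested.

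Nr1d1: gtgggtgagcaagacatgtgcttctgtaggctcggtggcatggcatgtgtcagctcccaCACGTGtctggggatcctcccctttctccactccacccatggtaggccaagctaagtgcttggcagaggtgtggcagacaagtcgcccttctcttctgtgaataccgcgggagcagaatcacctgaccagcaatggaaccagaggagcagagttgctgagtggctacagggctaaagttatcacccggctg

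In all, 9 of 10 clock genes were called at 120 min, 7 higher and 2 lower, beside 37.3% of all genes called (20.4% higher and 16.9% lower), and their median log2 fold change was 0.56 against -0.0066 for all genes. Over all genes that balance turned with the scaling: 2366 were higher and 1963 lower as reported, against 1786 and 3123 with library totals and 1805 and 3108 with upper-quartile factors. With either of these scalings 9 clock genes were still called, but not the same 9: Clock was lost and Nr1d1 was called lower. With 1 library left out, 7 to 9 clock genes were called at 120 min. The test of 120 against 60 min called 4 higher (Arntl, Cry1, Per2 and Clock) and 4 lower (Bhlhe40, Per1, Dbp and Nr1d1), beside 35.8% of all genes (19.8% higher and 16% lower, or 2296 and 1864 genes, against 1963 and 2441 with upper-quartile factors). Cry2 and Per3 were not called, but Per3 was called lower without either 5 min library (adjusted p = 0.039). With 1 library left out the count was 6 to 9. These comparisons share their 120 min libraries, and those with mock share the mock libraries.

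**Figure D2:**
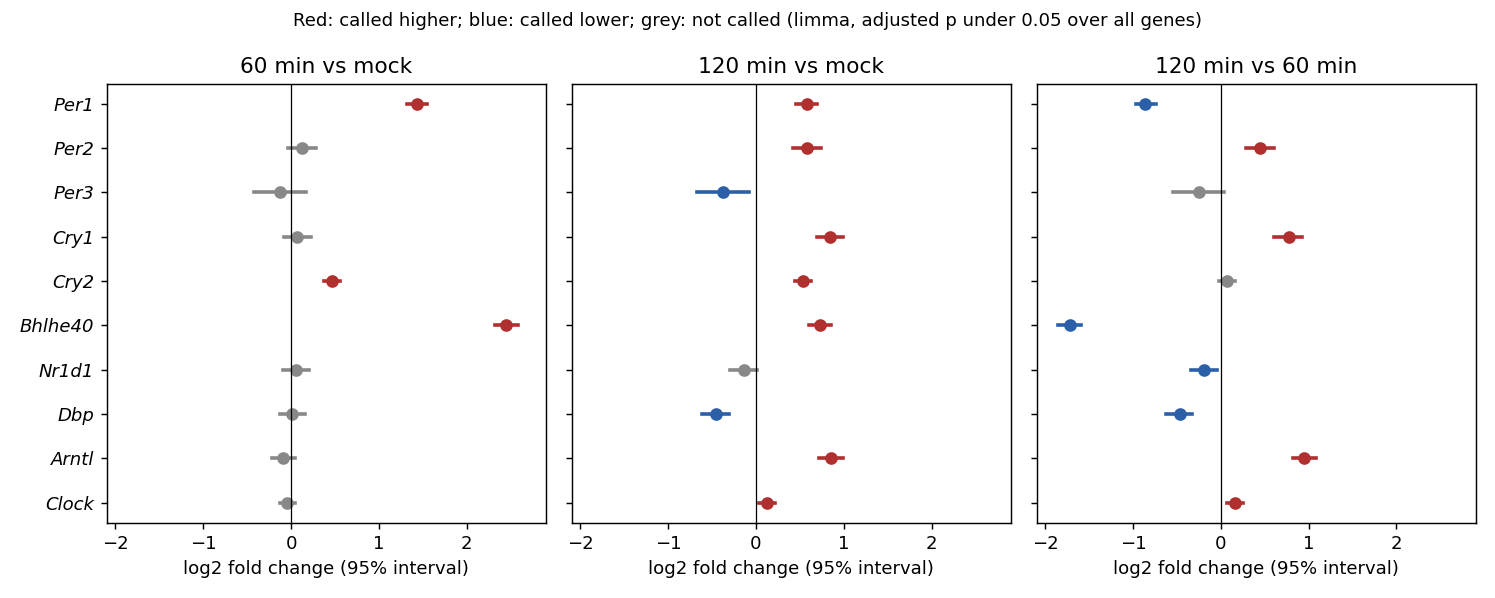
Log2 fold change (x axis, on the log2(CPM + 1) scale) of each clock gene (y axis) with its 95% interval from limma, at 60 min against mock, at 120 min against mock and at 120 against 60 min. Bhlhe40, Per1 and Cry2 are called at 60 min, 9 genes at 120 min, and the last panel shows 4 genes higher at 120 than at 60 min and 4 lower.

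Within minutes of the stimulus no clock gene was called. At 5 min limma called 0 of the 10, as did limma-voom, with 3 at an unadjusted p under 0.05 (Per2, Per3 and Nr1d1, all lower), in a comparison where 0% of all genes were called and 16% had an unadjusted p under 0.05. Per3 was at 0.658 of mock (log2 fold change -0.6, SE 0.13, adjusted p = 0.19), Per2 at 0.846 and Nr1d1 at 0.845 of mock. The result turned on 1 library: without 5 min replicate 1, Per3 (adjusted p = 0.00093) and Per2 (adjusted p = 0.011) were called lower, in a refit that called 5.97% of all genes. The authors' deposited table lists Per3 at 5 min with a log2 fold change of -0.62 and an adjusted p of 0.008. At 10 min 0 of 10 were called by limma or limma-voom, with 3 at an unadjusted p under 0.05 (Per1 higher, Bhlhe40 and Clock lower), beside 0.0344% of all genes called and 9.88% at that unadjusted p. From 5 to 10 min limma and limma-voom called 0, with 5 at an unadjusted p under 0.05, beside 0.00861% of all genes called and 15.9% at that unadjusted p. Without 5 min replicate 1 they were 2, Per2 and Per3, beside 6.31% of all genes. From 10 to 60 min the 3 genes called were again Bhlhe40 (6.02-fold), Per1 (2.47-fold) and Cry2 (1.43-fold), beside 5.63% of all genes called (3.7% higher and 1.93% lower, or 430 and 224 genes, against 374 and 405 with library totals). At 60 and 120 min the authors' deposited table has 3 and 9 clock genes past an adjusted p of 0.05, the same genes as limma in each case, beside 9.23% and 41.6% of all genes in that table.

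Other genes of the clock pathway were taken from a list of 31, also chosen with earlier results known, of which 24 were in the table. The other 7 were not analysed here. At 60 min 5 of the 24 were higher and 0 lower, beside 4.64% and 1.96% of all genes. At 120 min 8 were higher and 3 lower, 11 of 24 in all, beside 37.3% of all genes (20.4% higher and 16.9% lower). The medians were 0 and 0.05 on the log2 scale. The largest change was in Nfil3, a bZIP repressor (E4BP4) that competes with DBP for D-boxes. It rose 4.76-fold at 60 min to 85.2 ± 0.15 CPM from 17.2 ± 1.9 CPM in mock (limma, adjusted p = 2.5e-09, log2 fold change 2.25, SE 0.09). By 120 min it had fallen back to 2.05-fold over mock (log2 difference from 60 min -1.22). Dbp and its relative Tef were lower than mock at 120 min (Tef at 191 CPM against 238 CPM, limma, adjusted p = 0.00018). Whether these changes are linked was not tested.

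All 3 rhythmic output genes on the list were higher at both times, beside the 4.64% of all genes called higher at 60 min and 20.4% at 120 min. Noct, which encodes the NADP phosphatase nocturnin, went from 41.6 to 99.1 CPM at 60 min (2.35-fold, adjusted p = 6.5e-09) and 74.8 CPM at 120 min (1.78-fold). Nampt, the rate-limiting enzyme of NAD salvage, rose 1.48-fold at 60 min and 3.07-fold at 120 min, from 95.2 to 294 CPM (adjusted p = 2.3e-10). Wee1, a kinase that restrains mitotic entry, was 1.24-fold over mock at 60 min (adjusted p = 0.012, and 0.11 to 0.12 without mock replicate 1 or 60 min replicate 2) and 1.93-fold at 120 min.

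Among activator paralogs, Arntl2 (BMAL2) went from 2.68 to 6.79 CPM at 120 min (2.13-fold, adjusted p = 1.5e-05), late like Arntl, and Npas2, the CLOCK paralog, was not called (log2 fold change -0.02 at 120 min). Of 7 kinases, ubiquitin ligases and the deubiquitinase that act on PER and CRY proteins, Usp2 was higher at 60 min (1.32-fold, adjusted p = 0.0019). At 120 min the casein kinase genes Csnk1d (1.09-fold) and Csnk1e (1.11-fold) were higher. Both kinase calls were lost with library totals (adjusted p = 0.19 and 0.15), with upper-quartile factors (0.17 and 0.14) and in 3 of the refits with 1 mock or 120 min library left out (0.064 to 0.18). Rorb, a receptor that opposes REV-ERB, and Timeless were lower at 120 min (log2 fold change -0.37 and -0.35, adjusted p = 0.0057 and 0.021), calls lost without mock replicate 2 (adjusted p = 0.059 and 0.1) or 120 min replicate 2 (adjusted p = 0.062 and 0.19), and for Timeless also without mock replicate 1 (adjusted p = 0.058). Of the 4 genes for CREB and its coactivators limma called 0 at either time, with 1 (Crebbp, at 0.921 of mock) at an unadjusted p under 0.05 at 60 min and 0 at 120 min. Limma-voom called the same numbers of the 24 at 60 and 120 min, 5 and 11.

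**Figure D3:**
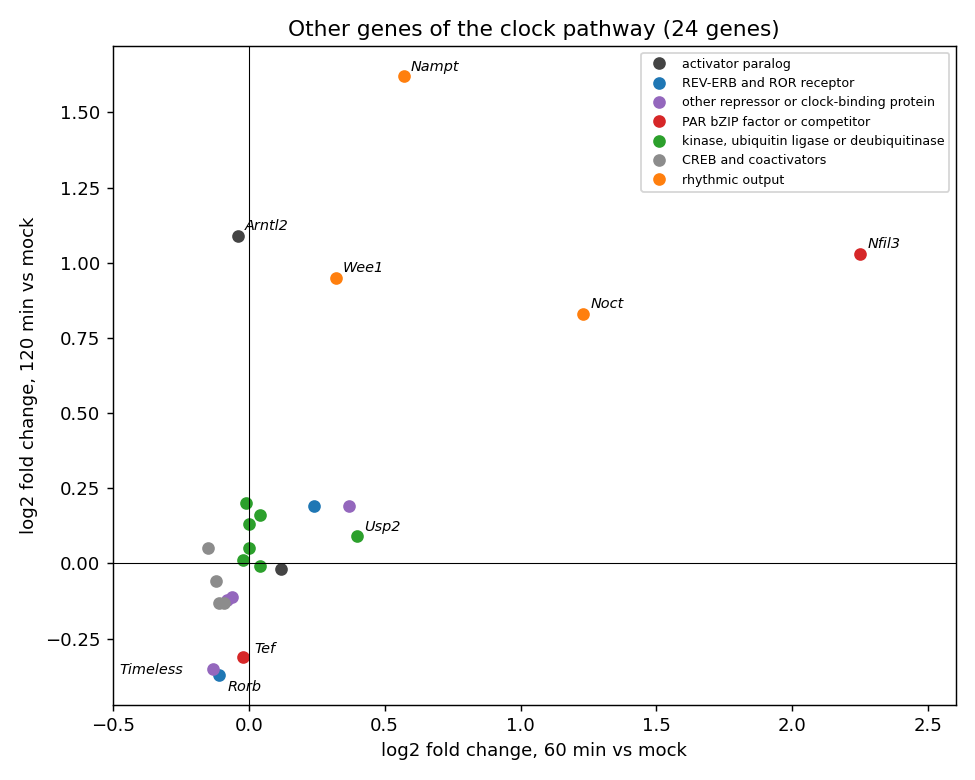
Log2 fold change at 120 min against mock (y axis) by that at 60 min against mock (x axis) for 24 other clock pathway genes, coloured by role; genes called at either time and beyond 0.3 on an axis are named. Nfil3 and Noct lie far to the right, Nampt, Arntl2 and Wee1 high, and Rorb, Timeless and Tef below 0 at 120 min.

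The genes whose levels ran most like each clock gene over the 10 libraries were found by Pearson's r among 11083 genes, as a description. The libraries share 5 groups, so that a high r reflects mainly the group means. Each neighbour, early or late, therefore follows the course of its clock gene by construction. For Per1 these were Egr1 (r = 0.9968), Arid5a (0.9958) and Klf4 (0.993), and for Bhlhe40 Apold1 (0.9938), Csrnp1 (0.9933) and Elmsan1 (0.9917), all of them with a larger log2 fold change at 60 than at 120 min. For Cry2 they were Ackr3 (0.9965), Cwc25 (0.9961) and Plau (0.9946), with log2 fold changes of 0.58 to 1.24 at 60 min and 0.71 to 1.42 at 120 min.

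Since neighbours were picked by correlation over the same libraries, those of the late genes were late by construction. Arntl was most like Ccdc137 (0.9933), Actn1 (0.9927) and Piezo1 (0.992), Cry1 like Jak2 (0.9929), Mob3a (0.9913) and Arih1 (0.9912), and Per2 like Zfp598 (0.9886), Cpsf4 (0.9884) and Zswim4 (0.9866). Dbp was nearest to Paqr4 (0.9749), Mlycd (0.9701) and Fbxl4 (0.9699), with log2 fold changes of -0.3 to -0.25 at 120 min. The nearest genes of Per3 (Tia1, Inpp5b and Rnf123), Nr1d1 (Abcc8, Cacna1d and Sgsm1) and Clock (Slk, Csnk1g3 and Cflar) had r from 0.9568 to 0.9848 and changed by at most 0.29 on the log2 scale at 120 min.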

How the data were processed

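The submitters' processing notes name TopHat2 2.1.0, HTSeq, edgeR and bcl2fastq, and rat build rn6. They do not name the annotation, the strand setting or the filter on low genes. The authors deposited CPM per library, together with their own log2 fold changes and adjusted p-values against mock. The mock columns were repeated beside each time, and those 6 copies were not used. Every CPM was a whole multiple of 1 step per library, within 1.5e-09 reads, which gave the library totals; the lowest listed value was worth 9 to 20 reads.

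Libraries were scaled by trimmed means of M values (TMM), trimming 30% of the log ratios and 5% of the levels, and taken as log2(CPM + 1), so fold changes of low genes are understated. R 4.3.3 with limma 3.58.1 gave 1 joint fit to the 10 libraries, with group means, a trended prior and 5 residual degrees of freedom. A call needs p under 0.05 after Benjamini-Hochberg adjustment across the 11615 genes; single-gene p-values are two-sided and from this fit, which was first tested on simulated data. The labels call the repeats biological; where these do not stem from separate cultures, p-values measure only the spread between these samples.

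The clock genes, the wider list and the motifs were chosen with earlier results of these data known. All members are named, with wider-list genes called at 60 or 120 min, the 3 most correlated genes per member, and genes that overlap a member; the values of some genes that this takes are not reported here. Promoters are RefSeq's (GRCr8). Figures were drawn with matplotlib 3.10.9. The design had foreseen read counts; the table holds CPM, so limma was used. Other scalings, pseudocounts, filters and limma-voom, and single libraries left out, were tried as alternatives.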

Additional observations from a re-analysis of the deposited data

How the results depend on the processing

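The counts of clock genes called (0 at 5 and 10 min, 3 at 60 min, 9 at 120 min, and 0, 3 and 8 between neighbouring times) stayed within 1.5 times under each alternative run, except without 5 min replicate 1, where 2 were called at 5 min and 2 from 5 to 10 min; over all single libraries left out these counts ran from 0 to 2. The count of other pathway genes called at 120 min was 11, and 7 to 13 with 1 library left out (7 without mock replicate 2). For the fit with sample quality weights, and for the alternatives of the other pathway genes and Thra, the choice was made after the data were examined. The planned count model, on reads inferred from the CPM steps, was not run.

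Every change of direction was in a value that was not called before or after. Dbp at 60 min was -0.0219 with library totals and -0.0112 with upper-quartile factors (0.0141 as reported), and -0.0605 to 0.0925 with 1 library left out. Cry1 from 5 to 10 min was 0.00593 with library totals. Thra at 60 min was -0.0106 with library totals, and -0.0291 to 0.0809 with 1 library left out.

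With 1 library left out, log2 fold changes at 5 min ran from -0.114 to 0.0341 for Cry1 and from -0.0628 to 0.127 for Bhlhe40. At 10 min they ran from -0.043 to 0.0708 for Per2, -0.239 to 0.0965 for Per3, -0.127 to 0.0221 for Cry1 and -0.132 to 0.0187 for Nr1d1. At 60 min they ran from -0.000565 to 0.15 for Cry1 and -0.00143 to 0.113 for Nr1d1. From 5 to 10 min they ran from -0.0353 to 0.00634 for Cry1, -0.0284 to 0.127 for Dbp and -0.0562 to 0.00254 for Arntl, and from 10 to 60 min from -0.218 to 0.114 for Per3 and -0.05 to 0.033 for Arntl.

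Whether the repeat numbers pair the cultures is not stated. Replicate differences correlated between groups at -0.16 to 0.27 over 10 pairs of groups, which cannot settle it. With a replicate block 3 clock genes were called at 60 min and 9 at 120 min, and no call of a clock gene changed. From 5 to 10 min the block moved the calls over all genes from 1 higher and 0 lower to 111 and 2. With 2 libraries a group the spread rests on few samples; the clock genes held 643 reads or more in each library.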
